A study of Mus musculus with 4 samples.

Results

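The transcripts of 34 cell cycle genes were followed in mouse synovial fibroblast cultures given 4 treatments. The genes were chosen as a named list of cyclins, cyclin-dependent kinase (CDK) inhibitors, DNA replication factors, nucleotide enzymes and mitotic regulators, and each took its brightest probe set. Of the 34 genes, 33 had a usable probe set, among 12393 genes on the array. Ccnb1 had no usable probe set, so its signal is not analysed here and it enters the promoter counts only. Per the labels, cells came from the knees of male DBA/1J mice aged 8 to 12 weeks without arthritis, were passaged 3 to 4 times and were held in medium with 1% serum. The labels do not say how many mice gave the cells or whether they were pooled. The 4 dishes were kept for 6 h. One had vehicle, and the other three had IL-1β (5 ng/ml), of which one also had indomethacin (1 µM) and another indomethacin plus iloprost (1 µM each). IL-1β is an inflammatory cytokine of the arthritic joint, indomethacin blocks the cyclooxygenases that start prostanoid synthesis, and iloprost is a stable prostacyclin analogue. The title gives the question as what signalling by prostacyclin does in fibroblasts under IL-1β. Each treatment has 1 array, so a spread over replicates, a test and a p-value cannot be had, and every difference describes these 4 dishes.

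Cells that leave rest make D-type cyclins, which with CDK4 and CDK6 phosphorylate the retinoblastoma family and release E2F factors. E2F then drives genes of DNA replication and nucleotide supply, and a later wave of genes, many held down at rest by the DREAM complex, carries cells through mitosis. CDK inhibitors such as p21 and p27 oppose these steps, and synovial fibroblasts in low serum divide little.

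Markers of fibroblasts and of macrophages were both bright in all 4 cultures. The collagen gene Col1a2 had scaled signals from 5122 to 6104, the fibroblast receptor gene Pdgfra from 1229 to 1633 and Thy1 from 157 to 202. All 22 macrophage markers measured were above the floor on every array, with Csf1r at 4027 to 4326, Lyz2 at 5381 to 6005 and Adgre1 at 1082 to 2237. Of 11 endothelial and 10 lymphocyte markers at most 1 was above the floor on any array, and of 10 chondrocyte markers 1, Comp, was. The defining chondrocyte gene Col2a1 was at 1.65 to 4.43. In bulk RNA, fewer cells of a type and less RNA per cell cannot be told apart.

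Below, indomethacin stands for the dish with IL-1β and indomethacin, and iloprost for the dish with IL-1β and both drugs. Signals are linear fluorescence values, scaled so that the median gene is equally bright on each array. The floor, below which a signal is not read as a level, was 37.7, the 50th percentile of all values. Most cell cycle genes were dim. Of the 33 genes, 21 were above the floor on all 4 arrays and 5 on some of them (Ccne2, Mcm5, Aurka, Plk1, Bub1). The other 7, Ccne1, Cdc6, Tyms, Tk1, Aurkb, Bub1b and Kif11, were at the floor on every array and have no ratio. Ratios are given as log2, where 0.58 is 1.5-fold. The only error that could be had is the spread of log2 ratios between probe sets of 1 gene on the same arrays, with an SD of 0.20 to 0.22 over the 6 comparisons, and 0.24 to 0.26 for genes with a mean signal under 100. It leaves out differences between dishes.

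**Figure D1:**
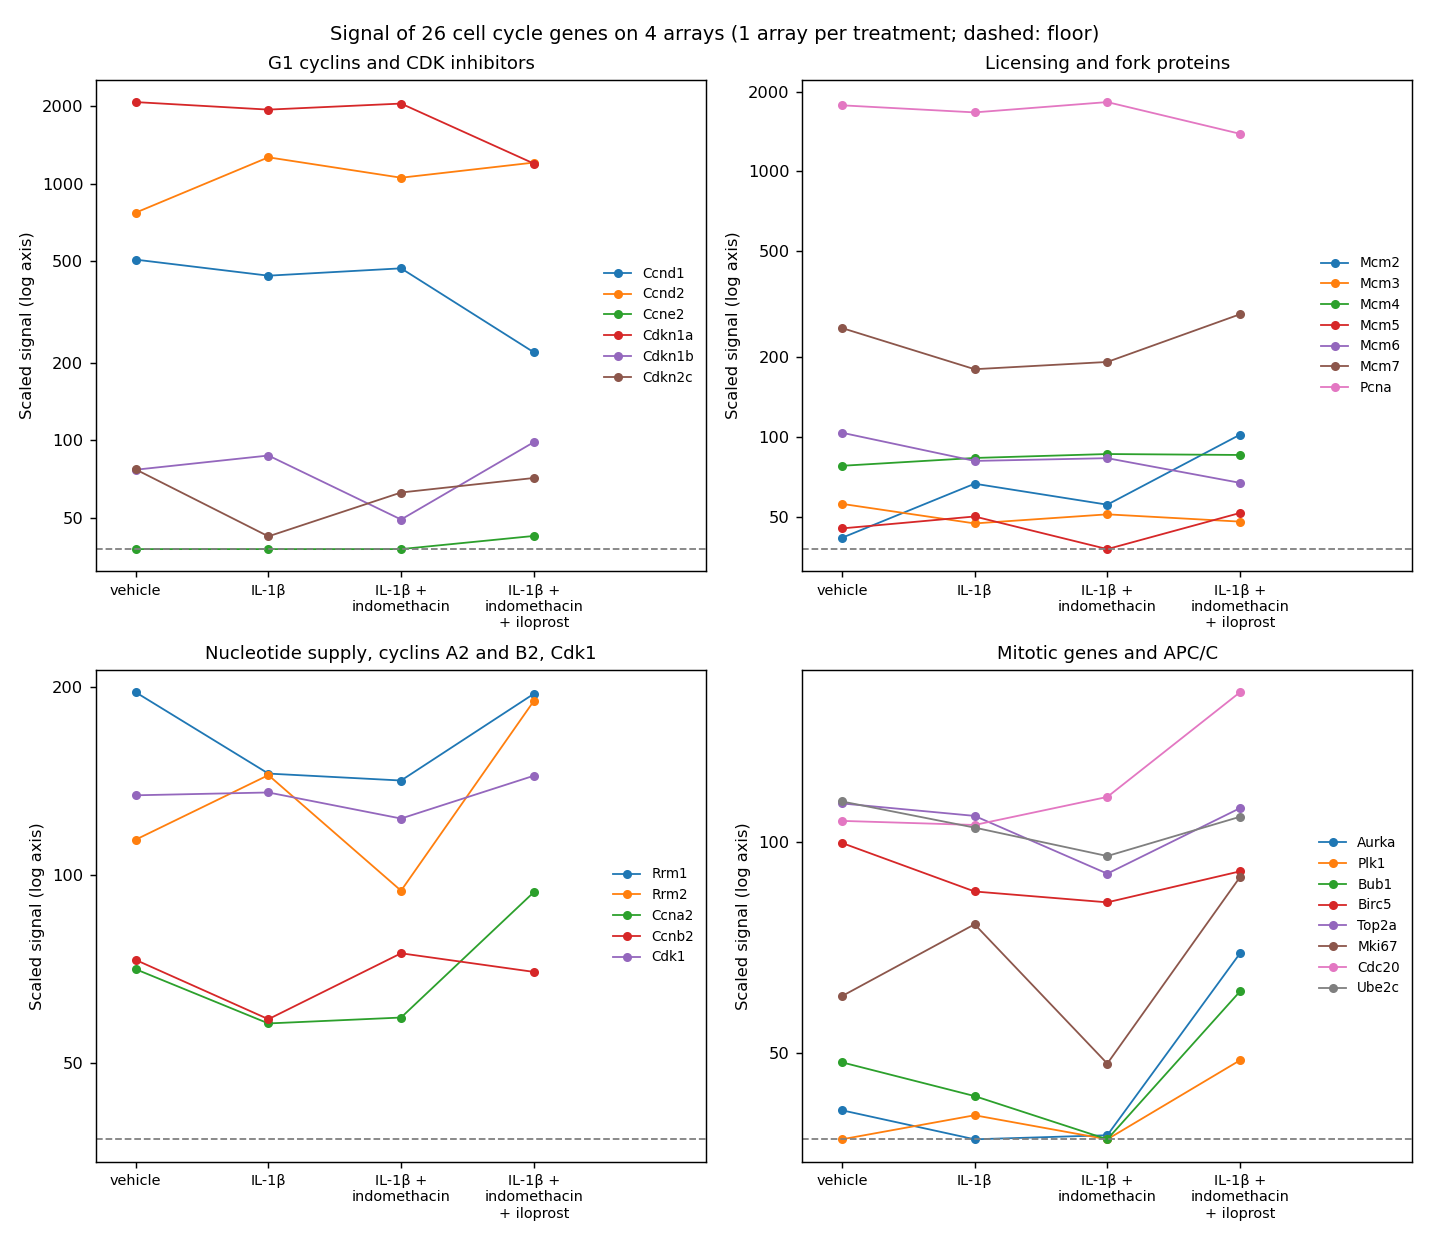
Scaled signal (log axis) of the 26 cell cycle genes above the floor on at least 1 array, by treatment, 1 point per array; the dashed line is the floor of 37.7 and points on it are at or below it. Levels of different genes come from different probes and are not comparable. Ccnd1 and Cdkn1a are lowest on the iloprost array, where Rrm2, Mki67, Aurka and Bub1 are highest.

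Among the G1 cyclins, both D-type cyclins were bright and differed between treatments, each in its own way. Ccnd1, which encodes cyclin D1, had scaled signals of 506 with vehicle, 438 after IL-1β, 468 with IL-1β and indomethacin, and 220.3 with iloprost added. The first 3 arrays lay close together and the iloprost array was the low one. The log2 ratio with iloprost was -1.09 against IL-1β and indomethacin, -0.99 against IL-1β alone and -1.20 against vehicle. All 3 probe sets of Ccnd1 were lower with iloprost against indomethacin, from -1.22 to -0.69. Every one of these ratios is further from 0 than 1.5-fold. Ccnd1 stood at -0.21 for IL-1β against vehicle and at 0.10 for indomethacin against IL-1β, both within 1.5-fold.

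Ccnd2, which encodes cyclin D2, had scaled signals of 770.5, 1266, 1054 and 1207 in the same order. On this probe set vehicle was the low array and the 3 IL-1β arrays were high. Its log2 ratio was 0.72 for IL-1β against vehicle. The 6 probe sets above the floor were all higher there, from 0.36 to 0.72, with a median of 0.54. For IL-1β with indomethacin against vehicle they split, with 4 higher and 2 lower, from -0.14 to 0.54. Indomethacin against IL-1β gave -0.26, with 5 of 6 probe sets lower, and iloprost against indomethacin gave 0.20, with 6 of 6 higher but as little as 0.01. Cyclin E genes carry cells from G1 into S phase. Ccne1 was at the floor throughout, and Ccne2 had 24.2, 26.1, 22.4 and 42.4, above it only on the iloprost array. With iloprost, Ccne2 was thus higher by at least 0.17, a bound set by the floor.

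The 3 CDK inhibitor genes each had a different pattern over the arrays. Cdkn1a encodes p21, the inhibitor induced by p53. It had scaled signals of 2077 with vehicle, 1941 after IL-1β, 2049 with indomethacin and 1197 with iloprost. As with Ccnd1, the iloprost array alone was low. The log2 ratio with iloprost was -0.78 against indomethacin and -0.70 against IL-1β, and its second probe set gave -0.80 and -0.74. It stood at -0.10 for IL-1β against vehicle and at 0.08 for indomethacin against IL-1β. Against IL-1β alone, Cdkn1a was past 1.5-fold in 5 of 7 alternative treatments of the data, from -0.84 to -0.40.

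Cdkn1b encodes p27, an inhibitor that accumulates in resting cells. Its scaled signals were 76.8, 87.2, 49.1 and 98.3, so that the array with indomethacin was low. The log2 ratio was -0.83 for indomethacin against IL-1β and 1.00 for iloprost against indomethacin. Both ratios share the indomethacin array. With the floor at the 65th percentile both were bounds, at most -0.0024 and at least 0.17. A second probe set of Cdkn1b was under 5 on all arrays, so the values rest on 1 probe set. Cdkn2c encodes p18, an inhibitor of CDK4 and CDK6. It stood at 77.0, 42.3, 62.6 and 71.3, with IL-1β alone low. Its log2 ratio was -0.87 for IL-1β against vehicle and 0.76 for both drugs against IL-1β.

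Of the replication factors, the subunits of the MCM helicase had different patterns. Mcm2 had scaled signals of 41.6 with vehicle, 66.5 after IL-1β, 55.4 with indomethacin and 101.7 with iloprost, a log2 ratio of 0.88 for iloprost against indomethacin and 1.29 against vehicle. Its vehicle signal is just above the floor. The second Mcm2 probe set was above the floor on the iloprost array alone, at 44.1. If the floor is raised to the 65th percentile, the ratio against vehicle was a bound of at least 0.22. Mcm7 had 256.8, 179.6, 191.3 and 289.3, and was low on the IL-1β and indomethacin arrays. Its ratio was -0.52 for IL-1β, with 4 of 4 probe sets lower, and 0.60 for iloprost against indomethacin, with 4 of 4 higher from 0.11 upwards.

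The other helicase subunits showed smaller ratios. Mcm6 was at 103.5, 81.0, 83.0 and 67.0, lowest with iloprost, with -0.63 against vehicle. That value passed 1.5-fold in 2 of 7 alternatives. Mcm3 was at 55.8, 47.1, 51.0 and 47.8, and Mcm4 at 77.7, 83.1, 86.0 and 85.3. On these probe sets both were within 0.25 of 0 in every comparison. The second Mcm4 probe set ran from -0.44 for IL-1β against vehicle to 0.35 for indomethacin against IL-1β. Mcm5 was at 45.1, 50.02, 36.9 (below the floor) and 51.6, and thus at least 0.45 higher with iloprost than with indomethacin. The loading factor gene Cdc6 was at the floor throughout. Pcna encodes the sliding clamp of DNA polymerase and had 1774, 1669, 1825 and 1386, lowest with iloprost, at -0.40 against indomethacin and -0.27 against IL-1β. Its difference is short of 1.5-fold but larger than the probe-set SD. That SD comes from other genes, since Pcna has 1 probe set, and leaves out differences between dishes.

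Both measured subunits of ribonucleotide reductase, which makes deoxynucleotides, were higher with iloprost than with indomethacin. Rrm2, the subunit made in S phase, had scaled signals of 113.9 with vehicle, 144.5 after IL-1β, 94.3 with indomethacin and 189.9 with iloprost. The array with indomethacin was the lowest and the one with iloprost the highest. The log2 ratio was -0.62 for indomethacin against IL-1β and 1.01 for iloprost against indomethacin. All 3 probe sets agreed in sign in both, from -0.62 to -0.34 and from 0.91 to 1.30. The iloprost ratio of Rrm2 passed 1.5-fold in 7 of 7 alternatives. Rrm1, the large subunit, had 196.2, 145.3, 141.6 and 195.0. Its 2 probe sets were lower with IL-1β, at -0.57 and -0.43, and higher with iloprost against indomethacin, at 0.46 and 0.69. Tyms and Tk1, which supply thymidylate, were at the floor on every array.

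Of the later cyclins and their kinase, Ccna2 alone passed 1.5-fold. Ccna2 encodes cyclin A2 of S and G2 phase and had scaled signals of 70.6, 57.8, 59.1 and 93.8, highest with iloprost. Its log2 ratio was 0.67 against indomethacin, but its second probe set gave 0.14. Ccnb2, a mitotic cyclin, was at 73.1, 58.7, 74.9 and 69.9. Cdk1, the mitotic kinase, was at 134.1, 135.5, 123.1 and 144.2, within 0.23 of 0 in every comparison.

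Of 9 mitotic kinase, checkpoint, motor, topoisomerase and proliferation genes, 6 were measured for iloprost against indomethacin. All 6 were higher with iloprost, with a median log2 ratio of 0.54, where 54.9% of all genes lay above 0. Bub1 and Plk1 were below the floor on the indomethacin array, so their ratios are bounds that could only lie above 0. Mki67, the proliferation antigen Ki-67, was at 60.3 with vehicle, 76.4 after IL-1β, 48.3 with indomethacin and 89.1 with iloprost. Its ratio was -0.66 for indomethacin and 0.88 for iloprost against indomethacin. Aurka encodes the spindle-pole kinase Aurora A and stood at 41.5, 37.6, 38.2 and 69.4. The first 3 arrays lay at or near the floor and the iloprost array well above it. Its ratio was 0.86 against indomethacin and at least 0.88 against IL-1β alone.

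Bub1, a spindle checkpoint kinase, was at 48.5, 43.4, 31.3 (below the floor) and 61.2. It was at least 0.70 higher with iloprost than with indomethacin. Plk1, another mitotic kinase, was at 31.7, 40.8, 29.2 and 48.9, below the floor on the vehicle and indomethacin arrays. It was at least 0.37 higher with iloprost than on either of these arrays. Top2a, which untangles DNA, was at 113.6, 109.0, 90.2 and 111.8, and Birc5 (survivin) at 99.7, 85.1, 82.1 and 90.9. For iloprost against indomethacin, Top2a stood at 0.31, above the probe-set SD of 0.20 for that comparison, and Birc5 at 0.15, below it. This SD does not include differences between dishes. Cdc20, an activator of the anaphase-promoting complex (APC/C), had 107.2, 105.8, 116.0 and 163.6, highest with iloprost. It stood at 0.50 against indomethacin, and at 0.63 against IL-1β with 2 of 2 probe sets at 0.63. Ube2c, the E2 enzyme of that complex, was at 114.3, 104.9, 95.5 and 108.7, within 0.26 of 0 in every comparison.

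**Figure D2:**
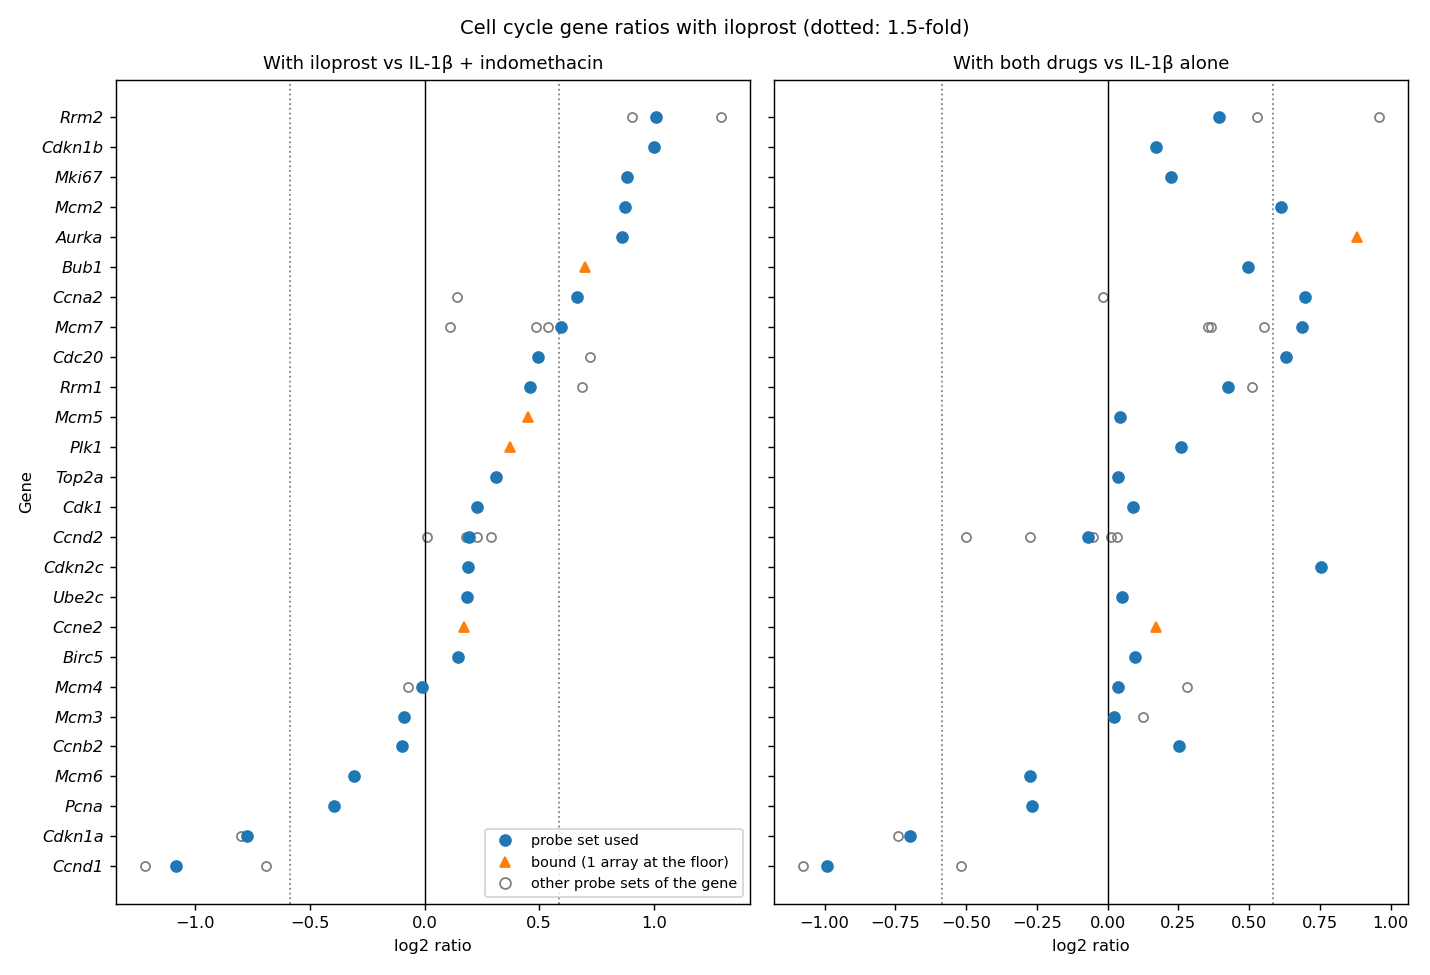
Log2 ratio of each cell cycle gene for iloprost added to IL-1β and indomethacin (left) and for both drugs against IL-1β alone (right), 1 array against 1 array; filled circles are the probe set used, triangles are bounds with the lower array at the floor, open circles are other probe sets above the floor on both arrays, and dotted lines mark 1.5-fold. Ccnd1 (-1.09) and Cdkn1a (-0.78) lie far left and Rrm2 (1.01) and Cdkn1b (1.00) far right on the left panel.

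The comparison of iloprost with its absence, under IL-1β and indomethacin, gave 10 genes past 1.5-fold, the most of the 6 comparisons. With the floor at the 65th percentile it gave 4, and both drugs against vehicle gave 5. Against IL-1β and indomethacin, 8 of 26 measured genes were at least 1.5-fold higher, where 7.85% of all 6997 measured genes were. They were Aurka, Bub1, Ccna2, Cdkn1b, Mcm2, Mcm7, Mki67 and Rrm2. Lower by 1.5-fold were 2, Ccnd1 and Cdkn1a, or 7.69% against 7.22% of all genes. The median of the 26 log2 ratios was 0.27, 4 of them bounds, against 0.04 over all genes. The 4 bounds, Ccne2, Mcm5, Plk1 and Bub1, were below the floor on the indomethacin array and could only lie above 0. At 2-fold, Rrm2 and Cdkn1b were higher, where 1.99% of all genes were, and Ccnd1 was lower, where 3.22% were. The 8 higher genes were mostly dim. Of 12 genes with a signal of 100 or more on the brighter array 3 were higher and 2 lower, against 7.12% and 8.48% of all genes that bright. Of the 14 dimmer ones 5 were higher and 0 lower, against 9.47% and 4.39%. If the floor is set to the 65th percentile, 2 of 16 were higher, Mcm7 and Rrm2.

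Macrophage markers also differed on this array. Their summed scaled signal was 44377 in the vehicle dish and 44098 in the IL-1β dish. It was 41614 once indomethacin was present and 38382 once iloprost was added. Of 22 markers 4 were at least 1.5-fold lower with iloprost than with indomethacin (Adgre1, Cybb, Aif1 and C1qa), or 18.2% against 7.22% of all genes. Higher were 2 (Fcgr3 and Cd14), or 9.09%, near the 7.85% of all genes. The median of the markers was -0.23, against 0.04 over all genes. Fibroblast markers summed to 37143 with indomethacin and 38055 with iloprost, with 0 of 17 past 1.5-fold. The part of this shift in the cell cycle values was not tested.

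Both drugs together were also set against IL-1β alone. Here 6 of 26 genes were at least 1.5-fold higher, Aurka, Ccna2, Cdc20, Cdkn2c, Mcm2 and Mcm7, where 4.83% of all genes were. Ccnd1 and Cdkn1a were lower, where 5.97% were. The median was 0.17, against 0.03 over all genes. The second Ccna2 probe set stood at -0.02 here. Aurka was past 1.5-fold in 6 of 6 alternatives, Cdkn2c in 5 of 6, Cdc20 and Mcm7 in 5 of 7. Ccna2 was in 3 of 7 and Mcm2 in 2 of 7. Here too 3 of 22 macrophage markers were lower, with a median of -0.31, and 0 of 17 fibroblast markers passed 1.5-fold. These counts depend on the scaling of the arrays, with 2 higher and 2 lower on the signals as deposited and 9 and 1 when scaled to the added control transcripts.

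With IL-1β against vehicle, 2 of 25 were at least 1.5-fold higher, Ccnd2 and Mcm2, where 4.78% of all genes were, and 1 was lower, Cdkn2c, where 3.54% were. The median was -0.10, against -0.01 over all genes, and 9 of 25 genes lay above 0 (36%, against 47.7% of all genes). Among markers, 2 of 16 fibroblast genes were 1.5-fold lower (Pdgfrb at -0.59 and Fap at most -0.63) and 1 of 22 macrophage genes was higher (Fcgr3 at 0.91). Their part in the result was not tested. As deposited, without scaling, the median was 0.13 and that of all genes 0.21.

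Indomethacin against IL-1β gave 0 of 25 genes at least 1.5-fold higher, where 1.55% of all genes were. It gave 3 lower, Cdkn1b, Mki67 and Rrm2, where 2.38% were. The median was -0.04 against 0.00 over all genes. When scaled to the added control transcripts, 1 was higher and 1 lower, and the median was 0.094. This comparison and the one for iloprost share the indomethacin array. Rrm2, Mki67 and Cdkn1b had their lowest signal on it.

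With vehicle as the base, IL-1β and indomethacin gave 6 of 24 genes above 0 (25.0%, against 46.2% of all genes), with a median of -0.26 against -0.02 over all genes. Of the 24, 1 passed 1.5-fold, Cdkn1b at -0.64, where 2.87% of all genes were lower, and 0 were higher, where 3.53% were. As deposited the split was 0 and 0, and with control-transcript scaling 1 higher and 0 lower. IL-1β with both drugs gave 5 of 26 higher than vehicle, Aurka, Ccnd2, Cdc20, Mcm2 and Rrm2, where 7.94% of all genes were. Ccnd1, Cdkn1a and Mcm6 were lower, where 7.52% were, and the median was 0.15 against 0.03. Of 22 macrophage markers 4 were 1.5-fold lower here (Adgre1 at -1.05, Cybb, Aif1 at -0.97 and C1qa at -0.71) and 1 higher (Fcgr3 at 1.43), with a median of -0.31. Of 17 fibroblast markers 1 was lower, Pdgfrb at -0.75. Their part in the result was not tested. The split was 6 and 2 as deposited and 9 and 1 with control-transcript scaling. At 2-fold, Mcm2 was higher and Ccnd1 lower, where 2.78% and 3.33% of all genes were. In the 4 comparisons without such a count above, 0 genes passed 2-fold in either direction. The shares of all genes higher and lower there were 1.77% and 0.519% for IL-1β against vehicle, 0.248% and 0.672% for indomethacin against IL-1β, 1.32% and 0.319% for indomethacin against vehicle, and 0.903% and 2.44% for both drugs against IL-1β.

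Of the 21 genes above the floor on all arrays, the highest signal was on the vehicle array for 9, on the IL-1β array for 1, on the indomethacin array for 3 and on the iloprost array for 8. Over all 6235 such genes the shares were 27.8%, 18.6%, 19.2% and 34.5%. The lowest signal was on the vehicle array for 3, on the IL-1β array for 6, on the indomethacin array for 8 and on the iloprost array for 4. Over all 6235 genes these shares were 26.7%, 21.3%, 23.2% and 28.7%.

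**Figure D3:**
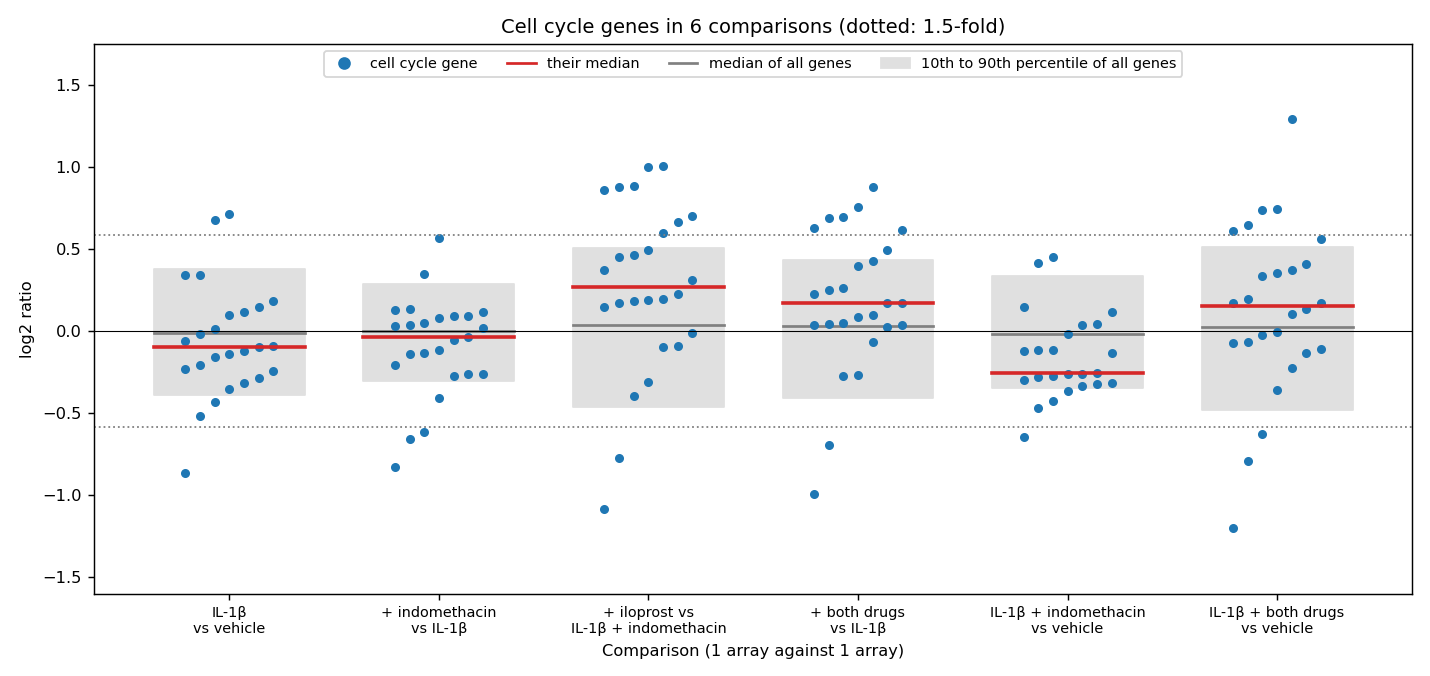
Log2 ratios of the measured cell cycle genes (points) in 6 comparisons of 1 array with 1 array, with their median (red line), the median of all measured genes (grey line) and the range from the 10th to the 90th percentile of all genes (grey box); dotted lines mark 1.5-fold and bounds are drawn at their bound. The red line lies at 0.27 for iloprost against indomethacin and at -0.26 for IL-1β and indomethacin against vehicle.

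Promoter sequences of the genes higher with iloprost are shown because many late cell cycle genes carry a CCAAT box and a CHR element, through which the DREAM complex and its partners act. Of the 34 genes, 28 had a promoter in the RefSeq table (build GRCm38.p6), with 31 start sites. Aurkb, Ccna2, Ccnd1, Ccnd2, Ccne2 and Mcm4 had none. In the sequences below, which end just before the annotated start and run 5′ to 3′ on the gene's strand, capitals mark 3 kinds of motif on either strand. The CCAAT box reads ATTGG where it lies on the opposite strand. The CHR element was searched as TTTGAA and also as the variant TTCGAA, and the E2F words are spelled out with the counts. Mki67, Mcm2, Rrm2, Aurka, Bub1, Cdkn1b and Mcm7 are the genes higher with iloprost that the table holds. Mcm7 is shown at the start farther upstream, since the bases before its other start lie within the longer transcript. Cdk1 is added since it holds all 3 kinds of motif and stood at 0.23.
Mki67, chr7:135716380-135716579, minus strand: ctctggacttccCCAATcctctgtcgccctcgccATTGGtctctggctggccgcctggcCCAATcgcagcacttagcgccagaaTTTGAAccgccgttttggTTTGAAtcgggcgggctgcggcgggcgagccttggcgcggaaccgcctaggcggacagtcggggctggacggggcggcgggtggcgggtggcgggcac
Mcm2, chr6:88898781-88898980, minus strand: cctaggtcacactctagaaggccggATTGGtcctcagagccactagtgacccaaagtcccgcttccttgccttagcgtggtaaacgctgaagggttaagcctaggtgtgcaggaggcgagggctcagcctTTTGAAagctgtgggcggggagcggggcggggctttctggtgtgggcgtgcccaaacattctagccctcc
Rrm2, chr12:24708154-24708253, plus strand: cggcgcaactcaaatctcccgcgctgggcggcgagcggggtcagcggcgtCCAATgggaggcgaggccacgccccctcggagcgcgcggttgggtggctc
Aurka, chr2:172370571-172370670, minus strand: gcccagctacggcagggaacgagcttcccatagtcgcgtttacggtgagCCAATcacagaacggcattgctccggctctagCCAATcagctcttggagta
Bub1, chr2:127831860-127831959, minus strand: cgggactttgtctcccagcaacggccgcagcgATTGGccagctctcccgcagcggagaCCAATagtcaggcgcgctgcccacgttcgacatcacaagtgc
Cdkn1b, chr6:134920151-134920400, plus strand: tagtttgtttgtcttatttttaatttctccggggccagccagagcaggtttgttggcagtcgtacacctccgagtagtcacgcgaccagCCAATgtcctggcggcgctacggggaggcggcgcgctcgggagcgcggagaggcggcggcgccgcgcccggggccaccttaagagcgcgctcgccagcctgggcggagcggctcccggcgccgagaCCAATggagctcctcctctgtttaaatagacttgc
Mcm7, chr5:138171884-138172133, minus strand: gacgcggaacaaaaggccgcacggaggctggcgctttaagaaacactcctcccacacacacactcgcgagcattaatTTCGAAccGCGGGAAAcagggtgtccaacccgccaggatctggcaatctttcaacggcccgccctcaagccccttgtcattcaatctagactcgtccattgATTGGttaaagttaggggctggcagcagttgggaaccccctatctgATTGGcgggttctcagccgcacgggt
Cdk1, chr10:69352913-69353052, minus strand: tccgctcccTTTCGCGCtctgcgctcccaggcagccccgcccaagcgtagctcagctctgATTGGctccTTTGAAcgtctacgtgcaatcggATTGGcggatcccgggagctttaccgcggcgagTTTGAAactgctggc

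Motifs were counted in the 250 bases before each start, on both strands. A CCAAT box was found at 22 of the 31 starts (71.0%), against 33.8% of all 32851 starts in the table. A CHR word was found at 10 (32.3%), against 17.1%. An E2F word (TTTGGCGC, TTTCGCGC, TTTCCCGC or TTTGCCGC) was found at 5 (16.1%), against 1.86%. These 5 starts belong to Cdc6, Cdk1, Mcm5, Mcm6 and Mcm7. The cAMP response element TGACGTCA was found at 1 start, that of Mcm5 (3.23% against 1.55%), and its 5-base part TGACG, which overlaps it, at 5 (16.1% against 17.8%). Mcm5 also stood near the floor. Both starts of Cdkn1a held none of these motifs. Rrm2, Aurka and Bub1 held CCAAT boxes but neither CHR nor E2F words, and Cdkn1b held 2 CCAAT boxes only. Cdk1, with 3 CCAAT boxes (1 of them further upstream than the stretch printed), 2 CHR words and 1 E2F word, stood at 0.23, short of 1.5-fold. For the same comparison, iloprost against indomethacin, Top2a with 6 CCAAT boxes and 4 CHR words stood at 0.31. Ube2c with 6 CCAAT boxes and 1 CHR word stood at 0.19, and Mcm6 with 2 CCAAT boxes and 3 E2F words at -0.31. The motif shares cover all listed genes with a promoter, and a link between motifs and ratios was not tested. A match is a run of letters and not a measured binding site.

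Other replication genes, from a list of 46 with 21 measured, were also mostly higher with iloprost than with indomethacin. Of the 21, 6 were at least 1.5-fold higher (28.6%, against 7.85% of all genes) and 0 lower (against 7.22%), with a median of 0.21. Gmnn (geminin, a brake on relicensing) stood at 1.26, from 52.2 to 124.8, and the flap endonuclease gene Fen1 at 1.14, from 76.1 to 167.3. The dUTPase gene Dut was at 0.82, Tipin at 0.77, the maintenance methyltransferase gene Dnmt1 at 0.67 and the DNA ligase gene Lig1 at a bound of at least 0.65. The lowest were the licensing factor gene Cdt1 at -0.32 and Orc2 at -0.23. With IL-1β against vehicle, 1 of 21 was higher, Dnmt1 at 0.77, and 1 lower, Fen1 at -1.01. Each is 4.76%, near the 4.78% of all genes higher and 3.54% lower. The next in order were Slbp at 0.35 and Dut at -0.48. Indomethacin against IL-1β gave 0 of 19 past 1.5-fold, where 1.55% of all genes were higher and 2.38% lower. The ratios ran from Gmnn at -0.41 and Rfc3 at -0.36 to Orc2 at 0.26 and Fen1 at 0.33.

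Other mitosis genes, from a list of 63, were measured for 29 in the iloprost comparison. Of these 6 were at least 1.5-fold higher than with indomethacin (20.7%, against 7.85% of all genes). Lower were 3 (10.3%, against 7.22%), and the median was 0.22. The centromeric histone gene Cenpa was at 1.07, from 63.8 to 134.0, and Hmgb2 at 0.83. Spc25, a kinetochore gene, was at 0.72, the kinase gene Pbk at 0.71, the lamin gene Lmnb1 at 0.65 and Ckap2 at 0.63. Lower were the spindle assembly factor gene Tpx2 at -0.93, Trip13 at -0.84 and securin, Pttg1, at -0.67, from 631 to 397. With IL-1β 0 of 26 passed 1.5-fold, where 4.78% of all genes were higher and 3.54% lower. The ratios ran from Ckap2 and Spc25 at -0.42 to Lmnb1 at 0.41 and Prc1 at 0.55. With indomethacin against IL-1β, Lmnb1 at -0.61 was the 1 of 26 past 1.5-fold (3.85%). Of all genes 2.38% were lower and 1.55% higher there. Spc25 followed at -0.44, and Tpx2 and Trip13 were highest at 0.46 and 0.48.

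Genes that govern entry into S phase were found on both sides of 0. Of 18 measured, 2 passed 1.5-fold upwards with iloprost against indomethacin (11.1%, against 7.85% over all genes), the transcription factor gene E2f1 at 1.07 (from 38.0, at the edge of the floor, to 79.6) and the pocket protein gene Rbl2 at 0.59. The pocket protein gene Rbl1 (p107) was lower at -0.71, and the mitotic inhibitor gene Wee1 at most -0.56. IL-1β against vehicle gave E2f5 at 0.71 and Cdk7 at 0.59, and Rbl1 at -0.69, Rbl2 at -0.62 and Wee1 at most -0.59. Indomethacin against IL-1β gave Skp2 at most -0.72 and E2f5 at -0.47, with Myc at 0.54 and Wee1 at least 0.56. Of 4 further CDK inhibitors, Cdkn2b (p15) was at 472.6 with vehicle, 283.3 after IL-1β, 380.7 with indomethacin and 280.8 with iloprost, at -0.74 for IL-1β. Cdkn2a and Cdkn2d stayed within 0.44 of 0 in all comparisons.

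Genes of the p53 response and of growth arrest also lay on both sides of 0. Of 22 measured, 3 were at least 1.5-fold lower with iloprost than with indomethacin and 2 higher, with a median of 0.05. These are 13.6% and 9.09%, against 7.22% and 7.85% of all genes. The kinase gene Plk2 was at -1.25, from 1363 to 573, Plk3 at most -0.95 and the stress gene Sesn1 at -0.86. The arrest gene Gas1, made by resting fibroblasts, was at 0.83, from 1128 to 2001, and Sesn2 at 0.61. IL-1β against vehicle gave 4 of 22 lower, where 3.54% of all genes were, Gas1 at -0.95, Bbc3 at -0.77, Gadd45a at -0.74 and Gadd45g at -0.70. It gave 2 higher, where 4.78% were, Plk3 at least 1.00 and the antiproliferative gene Btg1 at 0.60. Indomethacin against IL-1β gave 1 of 22 higher, Plk2 at 1.10, and 0 lower, where 1.55% and 2.38% of all genes were. Gadd45a followed at 0.48, and Ccng2 at -0.54 and Sesn2 at -0.48 were lowest.

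**Figure D4:**
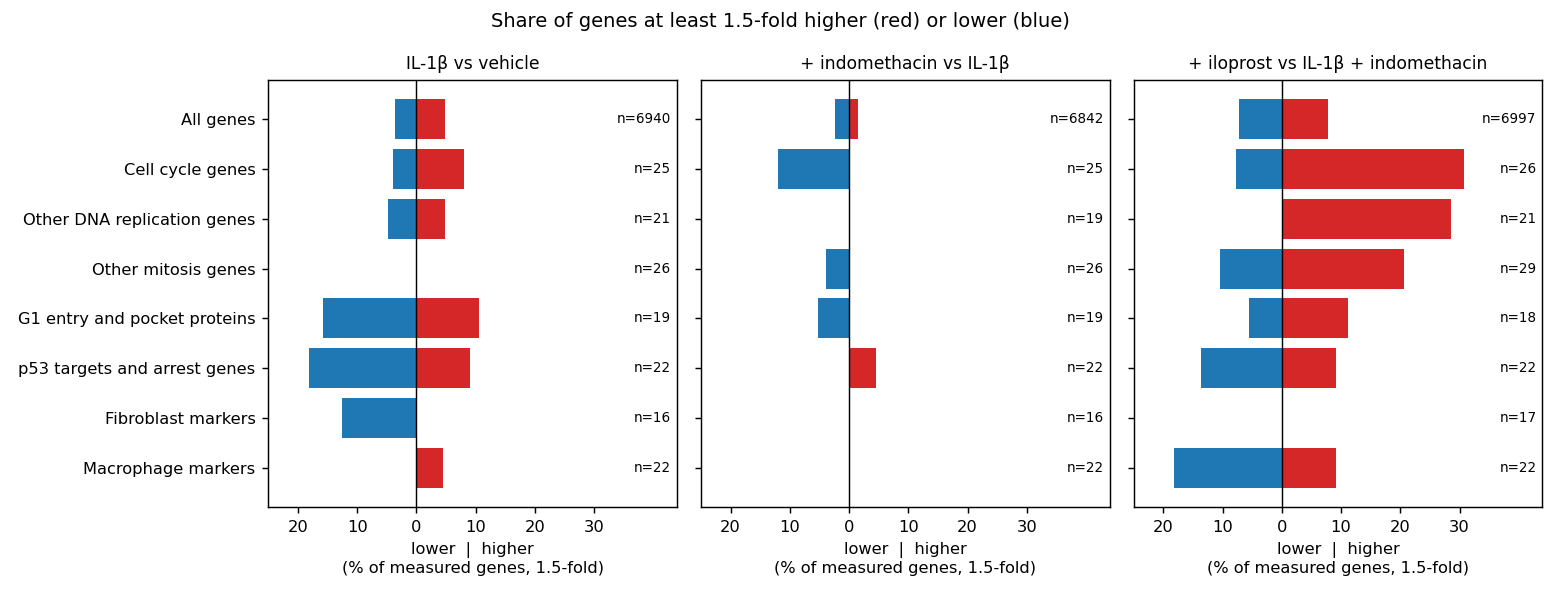
Share of measured genes at least 1.5-fold higher (red, right) or lower (blue, left), in percent, for all genes, the cell cycle genes, 4 further cell cycle lists and 2 marker lists, in 3 comparisons of 1 array with 1 array; n is the number of measured genes. With iloprost 30.8% of cell cycle genes and 28.6% of other replication genes were higher, against 7.85% of all genes.

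The other lists were also read for both drugs against IL-1β alone, where 4.83% of all genes were 1.5-fold higher and 5.97% lower. Of 23 other replication genes 4 were at least 1.5-fold higher and 0 lower, led by Fen1 at 1.46 and Tipin at 0.91, with Orc6 at most -0.33 and Rfc3 at -0.23 at the low end. Of 29 other mitosis genes 2 were higher, Cenpa at 1.03 and Pbk at 1.02, and 0 lower, with Pttg1 at -0.56 and Tpx2 at -0.47 lowest. Their medians were 0.17 and 0.16, against 0.03 over all genes. E2f1 at 0.78 and Cdk2, a kinase of S-phase entry, at 0.63 were higher and Rbl1 at -0.60 was lower, with Ccnd3 at -0.38. Of the arrest genes, Gas1 was at 0.96 and Polk at 0.58, and Sesn1 at -0.76. Plk3 went from 75.4 to below the floor.

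Against vehicle, where 7.94% of all genes were 1.5-fold higher and 7.52% lower, IL-1β with both drugs gave 3 of 23 other replication genes higher (13.0%), Dnmt1 at 1.10, Gmnn at 0.75 and Tipin at 0.71, and 0 lower, with Rfc5 at -0.51 and Orc6 at most -0.36 at the low end. Pbk at 1.07, Prc1 at 0.98 and Cenpa at 0.92 were the higher mitosis genes, 3 of 30 or 10%, near the share of all genes, and Pttg1 at -0.87 and Tpx2 at -0.86 the lower ones. Rbl1 was at 154.7 with vehicle and 63.4 with both drugs, a log2 ratio of -1.29. Wee1 was at most -0.59, and Cdk2 at 0.63 and E2f5 at 0.61 were the highest of that list. Of the arrest genes, Sesn1 was at -1.09, Bbc3 at -0.90 and Gadd45a at -0.81, and Polk at 0.70 and Btg1 at 0.50.

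IL-1β with indomethacin against vehicle gave 3 of 20 other replication genes lower, where 2.87% of all genes were, Dut at -0.74, Rfc5 at -0.73 and Fen1 at -0.68, while Dnmt1 at 0.43 and Orc2 at 0.27 were highest. Of 27 mitosis genes 1 was lower, Spc25 at -0.86, followed by Ckap2 at -0.53, with Trip13 at 0.51 and Prc1 at 0.44 highest. The S-phase entry genes Rbl2 at -0.76 and E2f1 at -0.62 were lower, and Cdk7 at 0.40 and Myc at 0.33 were highest. Of the arrest genes, Plk2 was at 1.09 and Plk3 at least 0.95, and Gas1 at -0.81 and Bbc3 at -0.55.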

How the data were processed

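The RNA went onto Affymetrix arrays by the maker's procedure, per the labels, and the deposited values are 1 linear intensity per probe set and array. What software and scaling gave these values is not stated in the labels. Probe sets were named from the platform annotation. Of 22690 probe sets, 20380 name 1 gene each, after leaving out 64 control probe sets, and 691 name several and were not used. All 33 member symbols matched the RefSeq table by gene number.

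Each array was multiplied by a factor (0.91 to 1.07) that makes the median of 6226 genes equal. Signals under the 50th percentile were set to that floor and log2 was taken. A gene at the floor on 1 array gives a bound, on both no ratio. As deposited, ratios differ from the scaled ones by 0.23 (IL-1β over vehicle), -0.15 (indomethacin over IL-1β) and -0.14 (both drugs over IL-1β) in log2. The rule for genes named was all members above the floor on at least 1 array, the 2 highest and 2 lowest ratios of each further list in each comparison, and set markers. Some other list genes and markers past 1.5-fold are named as well, and were chosen after their values were seen. Members and lists were chosen with earlier results of these data known. The calculation was checked on simulated data with changes planted in bright genes only. That check does not cover changes in dim genes or in genes at the floor. Python 3.11.15, numpy 2.4.6 and pandas 2.3.3 were used.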

Additional observations from a re-analysis of the deposited data

How the results depend on the processing

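No replicate was left out, since each treatment has 1 array. No paired analysis was possible because each treatment has 1 sample. Of 1000 ratios of single genes recomputed under 7 alternatives, 892 moved by less than the probe-set SD and 108 by more, and none of those past 1.5-fold changed sign. Ccnd1 was lower by 1.5-fold with iloprost in all 3 of its comparisons under all 7 alternatives.

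On the signals as deposited, the median of the cell cycle genes was 0.13 for IL-1β against vehicle (main value -0.10), -0.18 for indomethacin against IL-1β, -0.17 for indomethacin against vehicle, 0.058 for both drugs against IL-1β and 0.21 for both drugs against vehicle. In the same order, the medians of all genes as deposited were 0.21, -0.15, 0.059, -0.11 and 0.11. Then 2 genes were 1.5-fold higher with both drugs than with IL-1β, and 0 lower with indomethacin than with vehicle. Scaled to the 18 added control transcripts, the medians were 0.094 for indomethacin against IL-1β (main value -0.037), -0.11 for indomethacin against vehicle, and with iloprost 0.37 against indomethacin, 0.39 against IL-1β and 0.38 against vehicle. The medians of all genes were then 0.14, 0.12, 0.19, 0.32 and 0.31. That scaling gave 1 higher and 1 lower for indomethacin against IL-1β, 1 and 0 against vehicle, 1 lower for both drugs against IL-1β, and 9 higher and 1 lower for both drugs against vehicle. Quantile normalization gave a median of 0.091 for both drugs against vehicle and 1 lower gene against IL-1β.

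Raising the floor to the 65th percentile, which leaves 12 to 17 measured genes, gave medians of -0.20 for indomethacin against vehicle, and with iloprost 0.19 against indomethacin, 0.075 against IL-1β and 0.034 against vehicle. Counts were then 1 higher and 0 lower for IL-1β, 1 lower for indomethacin against IL-1β and 0 against vehicle, and with iloprost 2 higher against indomethacin, 2 against IL-1β and 3 against vehicle. Lowering it to the 40th percentile gave medians of -0.12 for indomethacin against vehicle, 0.33 for iloprost against indomethacin and 0.22 against IL-1β, with 2 genes lower for indomethacin against vehicle and 9 higher for both drugs against vehicle. Without a floor, on log2(signal + 16), counts were 1 higher for IL-1β, 1 lower for indomethacin against IL-1β and 0 against vehicle, and 2 and 3 higher for both drugs against IL-1β and vehicle. With the mean over all probe sets, 1 gene was higher for IL-1β, 2 lower for indomethacin against vehicle and 3 higher for both drugs against vehicle, with a median of 0.094. The floors change how many genes are measured. Scaling to the control transcripts, or none, moves ratios that are not bounds by a constant in each comparison. The cause of the other shifts was not tested.

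Signal limits what can be read: 7 of 33 genes were never above the floor, and of the 8 genes higher with iloprost against indomethacin 3 had a signal of 100 or more on the brighter array.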
